A study of Mus musculus with 27 samples.

Results

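The late step from day 14 to day 16 of osteoblast differentiation was examined in cells of the mouse calvaria, the flat bones of the skull vault. It covered 6 of the 27 files of the series, namely the 3 labelled day 14 and the 3 labelled day 16, and the files were chosen by these labels alone. The donors of both days were pups of the strain C57BL/6J-Col3.6 CFP, aged between 5 and 9 days, in which the Col3.6 fragment of the type I collagen promoter drives cyan fluorescent protein. Fluorescent cells, taken as pre-osteoblasts, were sorted after 4 days of growth and then cultured in ascorbic acid, beta-glycerol phosphate and 10% fetal bovine serum. Strain, transgene, sort and medium were therefore shared, and the groups differed in the day of harvest. The sort preceded differentiation, so it did not fix which cells the dishes held on either day. Whether both days came from the same plating is not given in the sources used here.

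A single barcode marked all 3 files of a day, which came from separate lanes. For the genes whose counts were whole numbers, chi-square per degree of freedom between these files was 1.006 on day 14 (9885 genes) and 1.003 on day 16 (10045 genes), which is sampling noise, so the files were summed to 1 library a day. With genes whose reads RSEM divided among transcripts included, it was 1.288 and 1.256. The study's methods call them triplicate samples, and whether they stood for separate cultures is not settled by the files. Taken as lanes of 1 library, as their counts behaved, they give no replicate of either day, and no test of the days was made. The summed expected count was 45150280 on day 14 and 50541880 on day 16, and 3 counts amounted to 0.0671 and 0.0606 CPM, that is, counts per 1e6 counts. Levels are given as CPM scaled to the upper quartile, for each of the 3 files of a day where a gene matters most. A gene is said to have risen or fallen when its count ratio between the days was at least 1.5 and the 95% exact interval of that ratio left out 1. That interval covers counting error between these libraries and says nothing of how other cultures would vary.

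Osteoblast maturation in culture runs from a phase of collagen deposition to one in which the matrix takes up mineral. Genes of the collagen phase, such as Col1a1, are already high when genes of the mineral phase, such as those of osteocalcin and bone sialoprotein, are switched on. Cells of the osteoblast lineage that become buried in matrix turn into osteocytes and express Dmp1, Phex and Sost. Calvarial cultures can also hold macrophages, and their mesenchymal cells can form adipocytes.

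Of 37991 genes, 14649 had at least 30 counts over the 6 files. From day 14 to day 16, 1047 of these rose (7.15%) and 633 fell (4.32%). The median log2 change was 0.02, with quartiles of -0.15 and 0.22. Most called genes were low: their median count over the 6 files was 147 for those that rose and 99 for those that fell, against 1233 for all genes. Among 9498 protein-coding genes with a mean of at least 5 TPM (transcript abundance per length, summing to 1e6), 234 rose (2.46%) and 64 fell (0.674%). By the share of genes that moved in either direction (11.5%), the step ranked 6 of the 8 steps between neighbouring days, whose shares ran from 10.5% for day 10 to 12 up to 19.4% for day 8 to 10. Days 12 and 18 took no part in the choice of these genes. From day 12 to day 18, 583 of the 1047 genes that rose were higher (median log2 change 0.12) and 372 of the 633 that fell were lower (median -0.16), while 45.9% of all genes were higher (median -0.03).

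**Figure D1:**
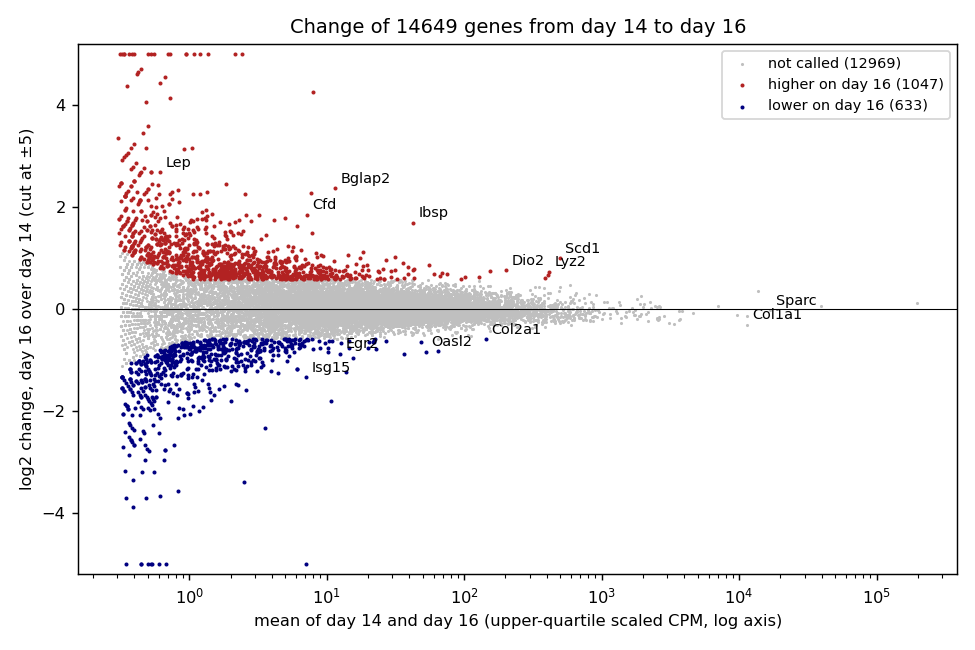
Log2 change from day 14 to day 16 (vertical axis) against the mean level of both days in upper-quartile scaled CPM (horizontal log axis) for 14649 genes, with 1047 that rose in red, 633 that fell in blue and the rest in grey. Points beyond 5 or -5 (19 and 9 genes) are drawn at the limit, and called genes thin out to the right, where Sparc and Col1a1 lie close to 0.

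The largest rise among well-expressed genes with a known role belonged to osteocalcin, the small calcium-binding protein of mineralised bone. Mice carry more than 1 osteocalcin gene, of which Bglap lies at chr3:88187423-88188386 and Bglap2 at chr3:88181658-88182621, both on the minus strand of NCBIM37. Their annotated coding sequences have 288 bases each and differ at 4, so that many reads match both and RSEM divides them. The stretch that holds 3 of these 4 bases, from base 1 to base 90 of the coding sequence and taken from the NCBIM37 transcripts, is shown to make this plain, with the bases that differ in capitals.
Bglap: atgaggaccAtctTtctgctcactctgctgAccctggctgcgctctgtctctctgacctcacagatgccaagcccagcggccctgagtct
Bglap2: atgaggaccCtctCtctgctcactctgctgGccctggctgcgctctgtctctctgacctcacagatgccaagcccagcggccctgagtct

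The counts of Bglap and Bglap2 were therefore also summed. The sum stood at 6.71, 6.31 and 6.11 scaled CPM in the 3 files of day 14 and at 30.9, 32.1 and 33.4 in those of day 16. Every file of day 16 was far above every file of day 14, a rise of 5.04-fold (285 to 1592 counts, log2 change 2.33, 95% counting interval 2.15 to 2.52). Taken singly, Bglap2 rose by 2.37 and Bglap by 2.27 on the log2 scale. The summed level had been 0.211 CPM on day 2 and 1.99 on day 12, and it was 50.9 on day 18, so that the pair stood higher on each day from day 12 on.

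Bone sialoprotein, encoded by Ibsp and able to nucleate hydroxyapatite, rose next among the bone genes. Its 3 files held 21.6, 20.6 and 18.6 CPM on day 14 and 65.0, 63.3 and 67.9 on day 16. This was a 3.23-fold rise (log2 change 1.69, interval 1.58 to 1.80). The gene had changed little between day 12 (18.6 CPM) and day 14 (20.3 CPM) and reached 88.5 CPM on day 18. Osteocalcin and Ibsp thus made up the 3 of 13 osteoblast markers that rose, and 0 fell, against 7.15% and 4.32% of all genes. The median log2 change of the list was 0.20, beside 0.02 for all genes.

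The other 10 osteoblast markers did not pass the threshold. Runx2, the transcription factor at the head of the lineage, had a log2 change of -0.14 and Sp7, the factor downstream of it, one of 0.19. The change was 0.26 for Alpl, the alkaline phosphatase that frees phosphate for mineral, and 0.22 for Spp1, which encodes osteopontin. All 13 markers were detected on both days, as the label osteoblast would have it. Markers of macrophages and adipocytes, described further on, were also higher on day 16, and their part in these values was not tested. In such bulk libraries, fewer cells of a type and less RNA per cell cannot be told apart.

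Genes that act on mineral moved unevenly. Of 8 mineralization genes 2 rose and 0 fell, against 7.15% and 4.32% of all genes, with a median of 0.16. Smpd3, a sphingomyelinase whose loss in mice impairs mineralization of bone, stood at 0.68, 0.53 and 0.73 CPM on day 14 and at 2.35, 1.98 and 1.68 on day 16 (log2 change 1.61, interval 1.02 to 2.28). Phospho1, the phosphatase that releases phosphate inside matrix vesicles, rose by 0.70 (interval 0.45 to 0.95), from 213 to 383 counts of which some were shared with other transcripts, and the change was 0.57 without 1 lane. Mgp, an inhibitor of calcification, had 298 to 304 CPM in the files of day 14 and 404 to 412 in those of day 16, a change of 0.44 that stayed under the threshold. Enpp1 and Ank, which supply the mineral inhibitor pyrophosphate, had changes of -0.11 and 0.05.

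Of 7 osteocyte genes, 4 had enough counts. Dmp1, which encodes an acidic matrix protein of osteocytes, was at 3.63, 3.05 and 3.65 CPM on day 14 and at 9.15, 7.62 and 7.26 on day 16. The log2 change was 1.21 (interval 0.94 to 1.49). Dkk1, a secreted inhibitor of Wnt signalling, rose from 22 to 69 counts (log2 change 1.48, interval 0.79 to 2.27). Phex, the endopeptidase lost in X-linked hypophosphataemia, had a change of 0.47, and Pdpn, a marker of early osteocytes, one of -0.04. Sost, the marker of mature osteocytes, had 0 counts on day 14 and 6 on day 16, Mepe 3 and 0, and Fgf23 1 and 0, so that no change could be read at this depth. Outside these lists, Ifitm5, a membrane protein of mineralising osteoblasts, was at 0.96, 1.06 and 1.00 CPM on day 14 and at 3.03, 3.42 and 3.54 on day 16 (log2 change 1.72).

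**Figure D2:**
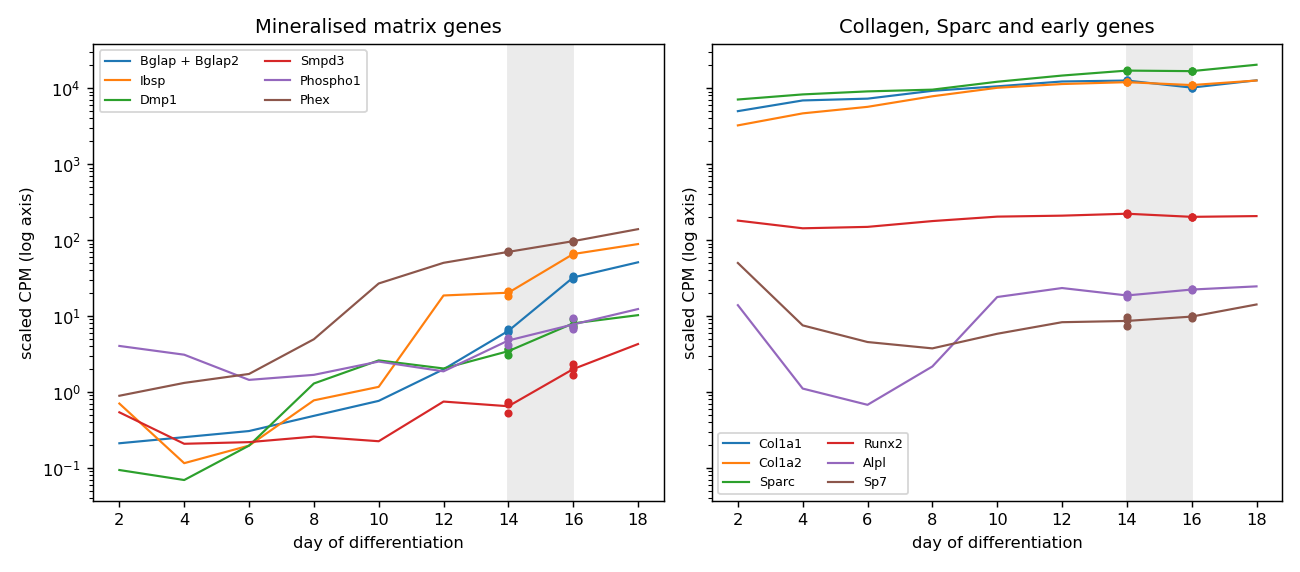
Scaled CPM (vertical log axis) over the 9 days for genes of the mineral phase (left) and for collagen, Sparc and early lineage genes (right). Lines join the summed library of each day, points are the 3 files of days 14 and 16, and the shaded band is the step examined. The sum of Bglap and Bglap2 goes from 6.37 to 32.2 CPM and Ibsp from 20.3 to 65.4 CPM, while the lines at the top of the right panel run nearly level.

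Collagen genes, in contrast, stayed under the threshold. Of 24 collagen and crosslinking genes 0 rose and 0 fell by 1.5-fold, beside 7.15% and 4.32% of all genes. Among protein-coding genes of at least 5 TPM these shares were 2.46% and 0.674%, so few calls were due in a list of this size. The summed level of the list went from 36714 CPM on day 14 to 32718 on day 16. The median log2 change was -0.11, beside 0.02 for all genes, with 20 genes below 0. Col1a1, which with Col1a2 forms type I collagen, stood at 12548, 12612 and 12603 CPM on day 14 and at 10115, 10151 and 10197 on day 16. This difference of -0.31 on the log2 scale was short of the threshold, and Col1a1 was back at 12669 CPM on day 18. Col1a2 had a change of -0.13 and Sparc, the abundant osteonectin, one of -0.02. Among 12 small leucine-rich proteoglycans 1 rose, near the share of all genes (7.15%). It was Omd, which encodes osteomodulin, a proteoglycan of mineralised matrix. Its 3 files held 32.6 to 36.2 CPM on day 14 and 51.8 to 53.2 on day 16, a change of 0.61 that fell to 0.25 once changes were corrected for GC content and length.

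Of 7 tested cartilage markers 1 rose and 1 fell, against 7.15% and 4.32% of all genes. The median was 0.14, with 5 genes above 0 and 2 below. Col2a1, the collagen of cartilage, was at 172, 176 and 171 CPM on day 14 and at 119, 112 and 113 on day 16. Its fall of 0.59 on the log2 scale (interval -0.64 to -0.54) was the largest loss in CPM of any called protein-coding gene. After the GC and length correction the change was -0.47 and no longer passed. Matn3, a cartilage matrix protein, rose from 28 to 114 counts (log2 change 1.86). Of the other 5 tested cartilage genes none passed, with Sox9 at -0.27 and Acan at 0.14.

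Most adipocyte markers rose. Of 17 adipocyte markers 10 rose and 0 fell, against 7.15% and 4.32% of all genes. All 17 had a change above 0, and the median was 0.67. With a threshold of 2-fold, 5 rose, beside 3.13% of all genes. Cfd, or adipsin, was at 3.56, 2.92 and 2.85 CPM on day 14 and at 11.5, 11.5 and 10.7 on day 16 (3.61-fold, log2 change 1.85, interval 1.58 to 2.13). Adipoq, the adipokine adiponectin, went from 23.3 to 26.4 CPM in the files of day 14 to 46.7 to 47.0 in those of day 16 (log2 change 0.90). Fabp4, a fatty acid carrier of adipocytes, rose by 1.03, Retn by 1.01 and Adrb3, the adrenergic receptor of fat, by 1.13. Lep, the gene of leptin, had 7 counts on day 14 and 53 on day 16 (log2 change 2.69, interval 1.63 to 4.16). The adipogenic regulators moved least, with changes of 0.11 for Pparg and 0.29 for Cebpa, neither of which passed. On the days that the comparison did not use, 17 of 17 markers were higher on day 18 than on day 12, with a median log2 change of 2.05.

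Of 13 genes of fatty acid and triglyceride synthesis 1 rose, near the share of all genes (7.15%), and the median was 0.07. That gene, Scd1, the stearoyl-CoA desaturase, gained more scaled CPM than any other called protein-coding gene, from 332, 326 and 339 in the files of day 14 to 669, 660 and 666 in those of day 16. Some of its reads are shared with other transcripts. Thrsp, a lipogenic regulator outside the list, rose by 1.79 (99 to 381 counts). Of 22 cholesterol synthesis genes 0 rose and 0 fell, beside 7.15% and 4.32% of all genes.

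Macrophage markers were higher as well. Of 17 tested markers 11 rose and 0 fell, against 7.15% and 4.32% of all genes. A change above 0 was seen in 16, and the median was 0.62. With a threshold of 2-fold 2 rose, beside 3.13% of all genes. After the GC and length correction 9 rose and 1 fell, beside 710 and 501 of 13492 genes. The summed level of the list was 430.3 to 443 CPM in the files of day 14 and 709 to 719 in those of day 16, most of it from Lyz2. Lyz2, the lysozyme of macrophages, was at 323, 309.7 and 309.9 CPM on day 14 and at 513, 523 and 526 on day 16 (log2 change 0.73, with shared reads). Mrc1, the mannose receptor, rose by 0.70, Laptm5 by 0.76, Emr1, a surface protein of mature macrophages, by 0.81, and the integrin gene Itgam by 0.91. Cd53, a tetraspanin of leukocytes, and Ctss, a lysosomal protease, rose by 1.02 and 1.01, and C1qa, a subunit of complement C1q, by 0.83 (0.50 without 1 lane). The change of Laptm5 was 0.53 in the deposited TPM. Cd14 went the other way, with 45 and 31 counts, and Ptprc, the common leukocyte antigen, had a change of 0.34 that did not pass. Csf1r, the receptor for the macrophage growth factor, had a change of 0.57, just short of 0.585, the log2 of 1.5. From day 12 to day 18, 17 of 17 were higher, with a median of 2.33. Outside the list, Clec4n, a lectin receptor of myeloid cells, rose by 1.72 (58 to 213 counts).

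Osteoclasts arise from the same lineage as macrophages. Of 11 tested osteoclast markers 0 rose and 2 fell, where 7.15% and 4.32% of all genes did, and the median was 0.04. Oscar, an osteoclast receptor, had 37 counts on day 14 and 6 on day 16 (log2 change -2.67, interval -4.31 to -1.51). Mmp9, the gelatinase of osteoclasts, was at 3.08, 3.59 and 2.52 CPM on day 14 and at 1.55, 1.44 and 1.50 on day 16 (log2 change -1.03). Ctsk, the collagen-degrading protease, had a change of 0.04 and Acp5, the tartrate-resistant phosphatase, one of 0.33. Calcr and Tm7sf4, defining genes of mature osteoclasts, had 0 counts on both days. Tnfsf11, which encodes the osteoclast-inducing RANKL, rose from 44 to 85 counts (log2 change 0.80), a call that was lost without 1 lane (0.45). Its decoy receptor Tnfrsf11b had a change of 0.12. Among other blood cells, 0 neutrophil, lymphocyte and red cell markers had enough counts to be tested.

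**Figure D3:**
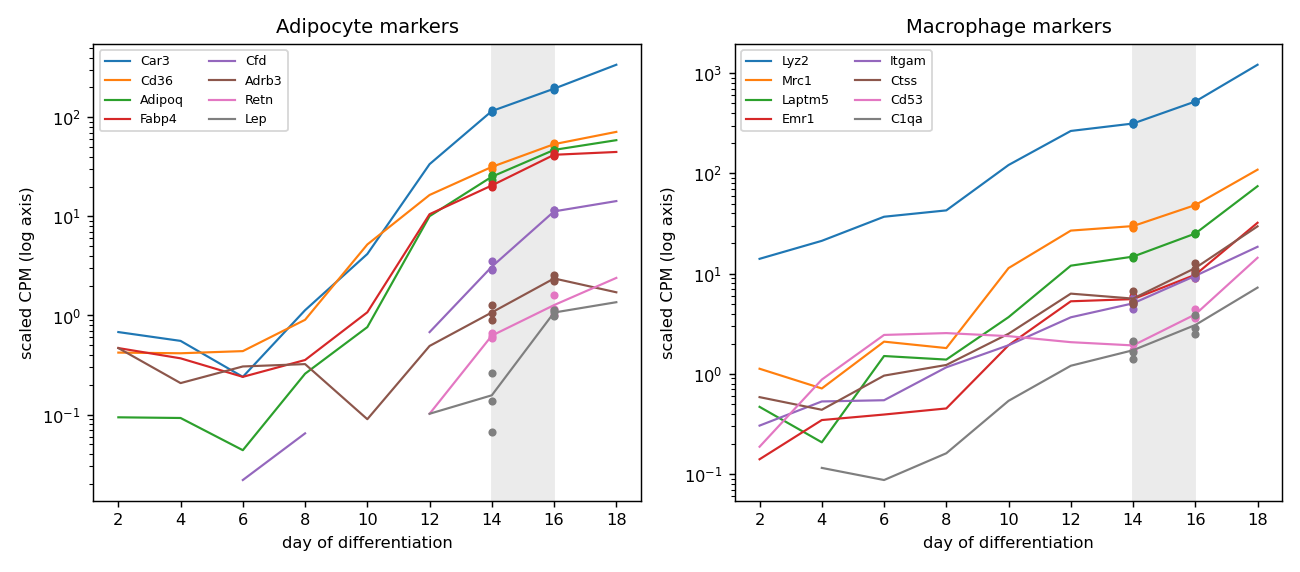
Scaled CPM (vertical log axis) over the 9 days for 8 adipocyte markers (left) and 8 macrophage markers (right) that rose from day 14 to day 16. Lines join the summed library of each day (a day at 0 is left blank), points are the 3 files of days 14 and 16, and the shaded band is the step. Lyz2 goes from 314 to 521 CPM and Adipoq from 25.1 to 46.9 CPM.

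Targets of type I interferon were among the genes that fell. These proteins are made when interferon activates factors that bind a DNA element of repeated GAAA blocks, and they restrict viruses. Of 32 tested interferon-stimulated genes 0 rose and 7 fell, against 7.15% and 4.32% of all genes. The median was -0.32, with 26 genes below 0. The 7 were Isg15, Dhx58, Cxcl10, Oasl1, Ifit1, Oasl2 and Ifi44. The promoters of Isg15, Ifit1 and Cxcl10 each hold GAAA blocks separated by any 2 bases on 1 or the other strand. A stretch of 100 bases from each (RefSeq, GRCm38.p6) is shown with the matches in capitals. It runs from 117 to 18 bases before the start site for Isg15, 140 to 41 for Ifit1 and 250 to 151 for Cxcl10.
Isg15, chr4:156200836-156200935, minus strand: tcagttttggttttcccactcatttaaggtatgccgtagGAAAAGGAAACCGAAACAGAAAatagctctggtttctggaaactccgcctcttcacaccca
Ifit1, chr19:34640749-34640848, plus strand: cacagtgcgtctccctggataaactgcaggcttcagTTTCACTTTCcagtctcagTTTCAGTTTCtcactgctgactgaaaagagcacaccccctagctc
Cxcl10, chr5:92349040-92349139, minus strand: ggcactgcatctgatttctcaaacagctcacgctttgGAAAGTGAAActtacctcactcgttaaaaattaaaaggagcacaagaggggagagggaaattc

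Isg15 has 3 overlapping matches, Ifit1 has 2 and Cxcl10 has 1. Both strands of the promoter, from 250 bases before to 50 after the start, were searched. Of the 7 genes that fell 6 had an entry and 3 held the pattern, as did 12 of 24 tested interferon genes with an entry and 3.44% of all 32851 promoters. A match describes the letters of the promoter and not a bound site.

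Isg15, a ubiquitin-like protein that is joined to other proteins, was at 9.31, 11.3 and 9.83 CPM on day 14 and at 3.90, 3.90 and 4.20 on day 16, a 2.53-fold fall (log2 change -1.34, interval -1.59 to -1.10). Oasl2 was at 70.1, 66.4 and 67.9 CPM on day 14 and at 38.9, 39.2 and 36.1 on day 16 (log2 change -0.84), and none of its reads were shared. Ifit1, which binds foreign RNA, fell by 0.88, and Dhx58, a relative of the RNA sensors, by 1.21, both with shared reads. Cxcl10, a chemokine induced by interferon, went from 41 to 16 counts (log2 change -1.48). In these genes no file of day 16 reached the lowest file of day 14, which speaks to counting error and not to other cultures. Such separation was not particular to called genes. Of 24 collagen and crosslinking genes, 0 were called, yet all files of day 16 lay below those of day 14 in 19. They lay above in 3. Of 53 cytosolic ribosomal protein genes, 0 were called, yet the files of day 16 lay above in 45 and below in 2. For Ifi44 the counts fell by 0.75, but the deposited TPM gave a change of 0.24. Oasl1 fell by 1.22 (28 to 13 counts), with -0.54 in the deposited TPM, under the threshold.

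The fall was not shared by the whole list. Ifit2 and Psmb9, a subunit of the immunoproteasome, had changes of 0.18 and 0.48 (a second entry of Psmb9, with shared reads, rose by 0.91), and the factors Stat2 and Irf9 changes of -0.45 and -0.30. Of the 32 genes, 30 had their highest level on day 8 of the 9 days. Among days 10 to 18, day 16 was the lowest day for 20 of them. Isg15 had 22.6 CPM at day 10, 11.2 at day 12 and 8.03 at day 18. The median change from day 12 to day 18, which leaves out both days compared, was -0.36.

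Immediate early genes, whose transcripts appear within minutes of a stimulus and decay quickly, fell as well. Of 23 genes 0 rose and 7 fell, against 7.15% and 4.32% of all genes. The median was -0.29, with 21 genes below 0. Egr2 was at 16.6, 15.3 and 17.0 CPM on day 14 and at 8.66, 9.12 and 8.82 on day 16 (log2 change -0.88, interval -1.05 to -0.70). Egr3 was at 5.06, 4.85 and 4.25 CPM and then at 2.41, 2.10 and 2.10 (log2 change -1.10). Ier2 fell by 0.83, the orphan nuclear receptor Nr4a3 by 0.91 and Fos, a partner in the AP-1 factor, by 0.68. Fosl1 and Atf3, at 52 and 34 counts on day 14, fell by 0.71 and 1.05. Nr4a3 and Fosl1 were the least stable: the change of Nr4a3 was -0.58 without 1 lane and -0.28 in the deposited TPM, and that of Fosl1 was -0.25 without 1 lane. Egr1, a zinc finger factor like Egr2 and Egr3, had 176 to 180.1 CPM in the files of day 14 and 124 to 138 in those of day 16, a change of -0.43 under the threshold. Jun, Junb, Myc and Klf6 had changes between -0.12 and 0.02. Unlike the interferon genes, the list had a median change near 0 from day 12 to day 18 (0.08).

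**Figure D4:**
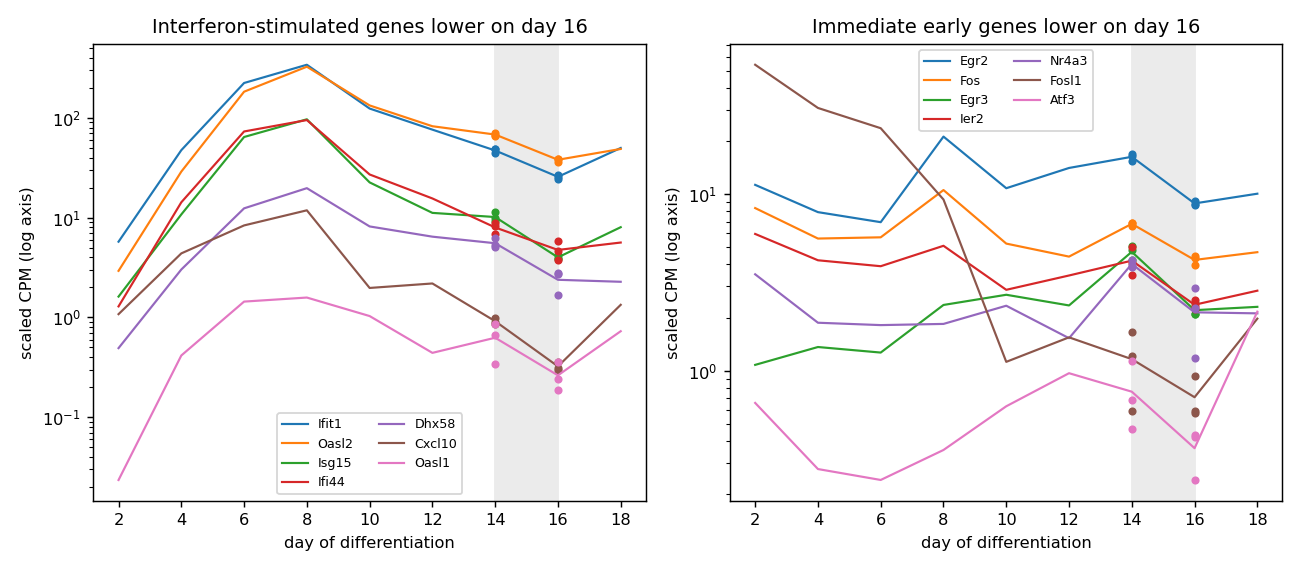
Scaled CPM (vertical log axis) over the 9 days for the 7 interferon-stimulated genes (left) and the 7 immediate early genes (right) that fell from day 14 to day 16. Lines join the summed library of each day, points are the 3 files of days 14 and 16, and the shaded band is the step. On the left all 7 lines peak on day 8 and Isg15 goes from 10.1 to 4.00 CPM in the step, and on the right Egr2 goes from 16.3 to 8.87 CPM.

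Signalling genes of bone are read against the 7.15% of all genes that rose and the 4.32% that fell. Of 16 Wnt ligands, agonists and antagonists 3 rose and 0 fell, and all 3 were secreted antagonists: Dkk1, Sfrp4 (log2 change 0.64) and Frzb (0.59). Frzb lay at the threshold, and its change was 0.58 with edgeR's TMM factors, which no longer passed. Sfrp2 and Sfrp1, which stood at 4762 and 2138 CPM on day 14, had changes of -0.08 and 0.13. Among 8 Wnt target genes, Lgr6 (24 to 54 counts, log2 change 1.01) and Tcf7 (53 to 107 counts, 0.86) rose, and Axin2, the usual reporter of the pathway, had a change of 0.12. Of 24 BMP and TGF-beta genes and 10 IGF genes 0 rose and 0 fell, with medians of -0.11 and -0.13. Dio2, the deiodinase that activates thyroid hormone, was among the 5 largest gains, from 148 to 151 CPM in the files of day 14 to 249 to 262 in those of day 16 (log2 change 0.77), and had 56.1 CPM on day 12 and 499 on day 18. Some of its reads were shared.

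Cell cycle genes did not move as a group. Of 33 genes 1 rose and 0 fell, beside 7.15% and 4.32% of all genes. The median was -0.02, with 16 genes above 0 and 17 below. The gene that rose was Birc5, or survivin, from 155 to 327 counts (log2 change 0.93). From day 12 to day 18, by contrast, 30 of the 33 were lower, beside 7932 of all 14649 genes.

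Changes also varied with GC content and gene length. With protein-coding genes of at least 100 counts split into 5 equal bins, the median log2 change was 0.11 in the bin of lowest GC content and -0.06 in that of the highest. It was 0.10 in the bin of the shortest genes and -0.04 in that of the longest. Of 53 cytosolic ribosomal protein genes 48 had a change above 0, with a median of 0.25, although 0 rose by the threshold, and the median was 0.16 after correction for GC content and length. Of 28 nuclear genes of the respiratory chain 3 rose (Ndufa1 by 0.84, Cox6c by 0.77, Uqcrb by 0.70), beside 7.15% of all genes. The list median was 0.26, or 0.12 after correction, under which Uqcrb had a change of 0.44. Of 13 mitochondrially encoded messenger RNAs only mt-Nd3 rose, by 0.83, and the correction brought it to 0.24. Their median was 0.08, or -0.26 after correction, under which 0 rose and 1 fell. Mitochondrial ribosomal RNA took 22.6% of counts on day 14 and 24.3% on day 16. The part of GC content and length in these rises was not tested. The mineral, fat, macrophage, interferon and immediate early medians were 0.13, 0.67, 0.61, -0.34 and -0.34 after the same correction.

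**Figure D5:**
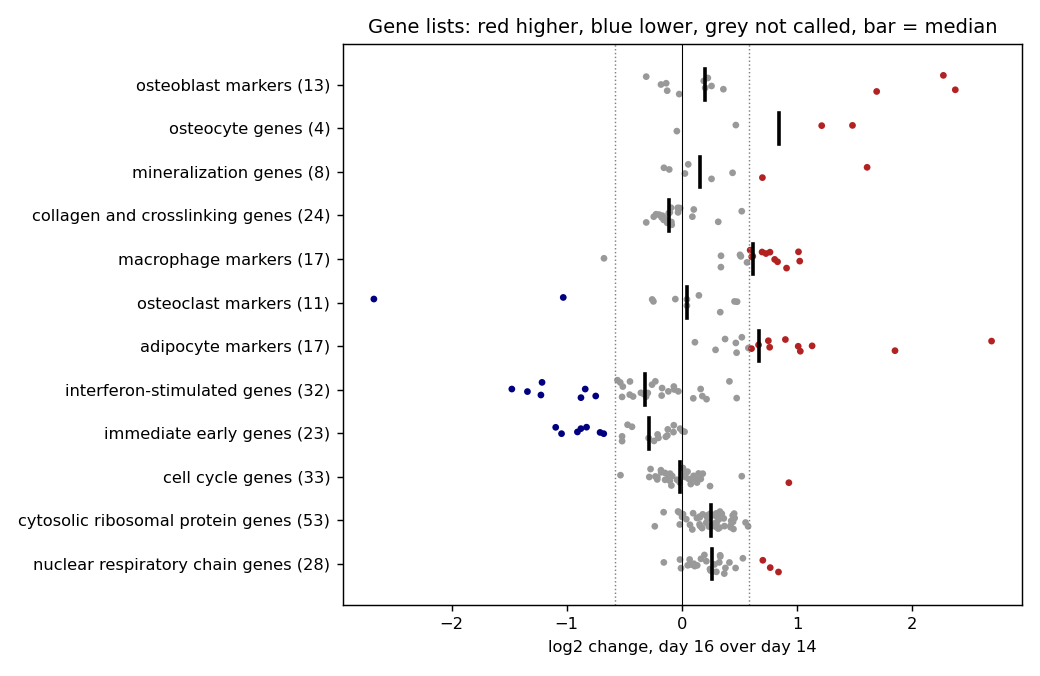
Log2 change from day 14 to day 16 (horizontal axis) of each tested member of 12 gene lists (number tested in brackets), with red points for genes that rose, blue for genes that fell and grey for the rest. Black bars are list medians, dotted lines mark 1.5-fold in either direction, and vertical scatter within a row carries no value. The adipocyte and macrophage medians (0.67 and 0.62) lie right of the dotted line, and the interferon median lies at -0.32.

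The remaining genes among the 15 largest rises had roles further from bone, or none that is well known. The predicted gene Gm9843 had 0 summed counts on day 14 and 241 on day 16, at least 72.6-fold higher against 3 counts, but its reads were shared and its files of day 16 held 6.49, 6.50 and 1.65 CPM. Mup10 and Mup18, close copies among the major urinary proteins, rose by 1.62 and 1.84, and their summed counts went from 184 to 658 (log2 change 1.69). Gm14308 rose by 1.49, also with shared reads. The whole-count genes Magohb, a subunit of the exon junction complex, and Lsm5, which binds a splicing RNA, rose by 1.48 and 1.38, and Gm525 by 1.45. Ranbp3l, with 14 and 41 counts, rose by 1.37, which ran from 0.82 to 2.71 when 1 lane was left out. Of the 5 largest gains in CPM, Prss23, a serine protease, and H3f3a, a replacement histone, rose by 0.66 and 0.61, both with shared reads. The change of H3f3a was 0.16 in the deposited TPM and 0.48 after the GC and length correction, both under the threshold.

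Among the largest falls several belonged to genes with shared reads, and the part of read division in these falls was not tested. Gm14434 (log2 change -1.58), Apoo-ps (-1.51), Tmem189 (-1.24), Gm16314 (-1.04), 3010026O09Rik (-0.99), AF064781 (-0.95), Gm4724 (-0.91) and B3gnt2 (-0.85), a glycosyltransferase, all had shared reads, and a second entry of Tmem189 had a change of 0.17. Gm14434 was at 6.89 CPM in 1 file of day 14 and at 2.62 and 2.22 in the other two, and its change was -0.68 without that lane and -2.55 without another. Zhx2 showed the same problem, with 0, 30.5 and 19.5 CPM in the 3 files of day 14 and 0.26, 0.11 and 13.9 on day 16. Leaving out a lane moved its change of -1.81 to between -6.29 and -0.46, so no change of Zhx2 is read here. Adnp, a homeobox protein gene with shared reads, fell by 0.83 and had like levels on days 12 and 18 (89.1 and 84.7 CPM). Gata3, a transcription factor, fell from 93 to 51 whole counts, but its deposited TPM gave a change of 1.75. Ssbp4 fell by 0.91 (236 to 139 counts).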

How the data were processed

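Total RNA was amplified with a NuGEN Ovation step, made into TruSeq libraries and sequenced on a HiSeq 2000. Per the labels, the authors aligned reads to the NCBIM37 transcriptome with Bowtie 0.12.9 and estimated expression with RSEM 1.2.8, and deposited an expected count, a TPM and an FPKM for each of 37991 genes. Expected counts were summed over the 3 files of a day and rounded. Upper-quartile factors came from genes with at least 30 counts in the 6 files, and 0.5 counts were added before log2 ratios. Intervals are exact binomial (Clopper-Pearson). Genes with any non-whole count (tolerance 0.005), 4307 of 14649, are said to share reads. Symbols, lengths and GC content came from the NCBIM37 annotation. The TPM used for level minimums was scaled to the upper quartile. Named genes were the 15 largest rises and falls among called protein-coding genes with a mean of at least 5 TPM, the 5 largest gains and losses in CPM, and up to 8 members of each of 48 gene lists with markers that define a cell type. The members and lists were chosen with earlier results of these data known. Chosen after the data were seen, a correction for GC content and length used lowess (span 0.3). The call rule was tested on simulated data. Alternatives used edgeR 4.0.16 and DESeq2 1.42.0 on R 4.3.3. Other values were computed in Python 3.11.15 with scipy 1.17.1 and statsmodels 0.14.6.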

Additional observations from a re-analysis of the deposited data

How the results depend on the processing

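Under 4 other scalings the number of genes that rose stayed between 994 and 1102 and the number that fell between 605 and 664, against 1047 and 633. A minimum of 100 counts gave 664 and 312, a minimum of 1 count gave 1129 that fell, and restriction to genes with whole counts gave 685 and 400. A threshold of 2-fold gave 459 and 301 (5.19% of genes in either direction, still rank 6 of 8 steps), and the laxer fold threshold tried gave 2082 and 1317. TPM as deposited gave 957 that fell. With the 6 files taken as separate samples, which treats lanes as replicates, DESeq2 gave 586 and 326. The replicate number is the lane, which every day shares, so it pairs files of a lane and not cultures: edgeR gave 913 and 521 with no replicate block and 886 and 486 with the block. Without 1 replicate number at a time the counts were 987 to 1027 and 553 to 563. Added after the data were seen, protein-coding genes at 5 TPM or more gave 234 and 64, and the correction for GC content and length gave 710 and 501 of 13492 genes. Gata3 turned to 1.81, 1.75 and 1.76 with scaled TPM, TPM and FPKM as deposited, and Ifi44 to 0.30, 0.24 and 0.27, and the cause was not tested. Of the other 1436 gene values over 103 genes, 1370 stayed within the counting interval and 66 moved outside it in the same direction. Macrophage calls numbered 10 to 13, adipocyte calls 8 to 12, interferon calls 7 to 9 and immediate early calls 6 or 7 without each replicate number. Depth limits what can be read of Sost (0 and 6 counts) and other genes near the 3 counts taken as the floor.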

Other observations

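Inflammatory and clock genes gave scattered calls, to be read against the 7.15% of all genes that rose and the 4.32% that fell. Of 17 tested cytokine and chemokine genes 3 rose and 2 fell, with a median of 0.30. Pf4, a platelet and macrophage chemokine, rose from 18 to 59 counts (log2 change 1.54), Nfkbia, the inhibitor of NF-kappaB, from 119 to 205 (0.64) and Cxcl5 from 163 to 276 (0.61). Tnfaip3, another brake on NF-kappaB, fell from 296 to 211 counts (-0.63) and Ccl3 from 67 to 43 (-0.78). These calls were unsteady: without 1 lane the change was 0.53 for Cxcl5, 0.52 for Nfkbia and -0.46 for Ccl3, and the deposited TPM gave -0.57 for Tnfaip3. Among 12 complement genes C3ar1, a receptor of myeloid cells, rose from 268 to 519 counts and C7 fell from 24 to 6. Of 17 circadian clock genes 2 fell, Gm129 from 73 to 32 counts and Npas2 from 293 to 196 (-0.52 in the deposited TPM). Cpa3, a protease of mast cells, fell from 30 to 5 counts, while Kit had 51 and 66 and Mcpt4, Tpsb2 and Fcer1a had 0.

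Of the 6 mouse genes around Rin3, Itpk1, an inositol phosphate kinase, rose from 112 to 211 counts (log2 change 0.76, interval 0.43 to 1.11). Rin3 had 952 and 828 counts, a change of -0.35 that did not pass, and Golga5 and Lgmn had changes of 0.07 and 0.18. Slc24a4 had 11 and 13 counts and Chga had 0 on both days.

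In 15 of 45 testable lists no gene passed the threshold, which 11.5% of all genes passed in either direction. At such a share a short list can hold no called gene. Besides those named above, the lists with no called gene covered antigen presentation, endoplasmic reticulum stress, glycolysis, heat shock, Nrf2 and metallothionein, contractile, stromal progenitor, lysosomal, glucocorticoid response and skeletal muscle genes. Of 7 skeletal muscle genes only 1 was tested.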
